A study of Mus musculus with 8 samples.

Results

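*Arc* and the 3 *Homer* genes (*Homer1*, *Homer2* and *Homer3*) were followed in cultured hippocampal neurons treated with melanin-concentrating hormone (MCH), as 4 of the 45706 genes in the gene table and 23 of the 109617 transcripts in the transcript tables. The members were chosen by gene symbol, and the *Homer1* transcripts were divided by the length of their coding sequence. Neurons were cultured from C57/Bl6 wild-type (*Wt*) mice at embryonic day 18 and received 1 µM MCH peptide or vehicle (H2O) for 4 h, with 4 wells per treatment (replicates 1 to 4). The wells came from 2 cultures, and neither the sample labels nor the study's methods give the culture of each replicate, so the spread between wells may be partly technical. A model tag in the labels names Alzheimer's disease, but their genotype entry is wild type and no disease allele is listed. The cultures were made from embryos and held glia beside neurons, and they are a model of developing neurons outside the brain.

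Arc is an immediate early gene product that travels as mRNA into dendrites, binds endocytic proteins and promotes the removal of AMPA receptors from synapses, and its protein descends from a retroviral Gag domain. Homer proteins are scaffolds of the postsynaptic density whose amino-terminal EVH1 domain binds the glutamate receptor mGluR5, Shank proteins and inositol trisphosphate receptors. Long Homer proteins carry a carboxy-terminal coiled coil through which they assemble, whereas the short, activity-induced form Homer1a lacks it and loosens the scaffold.

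With MCH, *Arc* fell to 66.4% and *Homer1* to 81.5% of their mean vehicle levels, and both genes passed the test across all genes. *Homer1* passed only narrowly, and its call was lost in every fit that left out a well. *Homer2* and *Homer3* did not pass it. Among the *Homer1* transcripts, the Homer1a form had the lowest log2 fold change of the 4 most abundant ones, but no single transcript of the 4 genes passed the test across all transcripts.

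The total of estimated reads per well ranged from 26083936 to 31844861. Reads per gene were scaled with TMM factors to CPM, counts on a common library size, and compared with edgeR's quasi-likelihood test over the 14962 genes that passed its filter on low counts, at a Benjamini–Hochberg adjusted *P* value under 0.05. All 5 neuron markers were detected in every well, and they summed to 3830 to 3960 CPM in vehicle-treated and 3710 to 4160 CPM in MCH-treated wells. The 6 astrocyte markers summed to 1020 to 2240 and 1100 to 2360 CPM in these wells, and they parted the wells by replicate number, at 1020 to 1120 CPM in replicates 1 and 2 and 2070 to 2360 CPM in replicates 3 and 4. The 5 microglia markers summed to 3.26 to 5.55 CPM over all wells, and *Sox10* of the oligodendrocyte lineage was at 0 in every well. Over all 14962 genes tested, 1272 had an unadjusted edgeR *P* value under 0.05. None of the 35 marker genes tested on the 7 lists passed the edgeR test between treatments (3 had an unadjusted *P* value under 0.05, and DESeq2 called 0). With a replicate block, a term for the replicate number in the fit, 4 passed, against 3.98% of all genes tested. These 4 were *Neurod2* of excitatory neurons and *Slc1a2* of astrocytes, at log2 fold changes of 0.24 and 0.15, and *Gad1* and *Vip* of inhibitory neurons, at −0.10 and −0.23. Other markers of excitatory neurons and astrocytes went the other way in that fit, as *Slc17a6* at −0.13 and *Gfap* at −0.09. *Neurod2* and *Slc1a2* therefore do not stand for their lists, and the part of these cells in the results was not tested. *Mchr1*, the MCH receptor, was at 9.91 ± 0.820 and 9.70 ± 0.297 CPM with vehicle and MCH (mean ± SD, n = 4 wells), with overlapping wells.

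The sequences that part the *Homer1* forms are shown first, because the short and the long proteins are told apart by what follows exon 5. In GENCODE vM21 on GRCm38 that exon ends at base 93356079 of chromosome 13, on the plus strand. The lower-case letters are the last 24 bases of the shared exon, and the capitals are the coding bases that follow it in each form, up to 36 of them.
Homer1-204: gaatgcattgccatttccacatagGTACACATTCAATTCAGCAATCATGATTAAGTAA
Homer1-207: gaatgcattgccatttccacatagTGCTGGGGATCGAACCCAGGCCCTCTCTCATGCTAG
Homer1-206: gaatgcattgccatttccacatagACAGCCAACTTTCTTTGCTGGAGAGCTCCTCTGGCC
Homer1-203: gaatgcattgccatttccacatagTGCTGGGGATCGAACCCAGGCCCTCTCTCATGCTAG
Homer1-202: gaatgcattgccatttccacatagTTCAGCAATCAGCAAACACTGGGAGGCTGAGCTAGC

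Homer1-204 (ENSMUST00000102752) encodes 186 codons and is the Homer1a form. Its exon 5 reads on into the intron, and its coding sequence ends 34 bases after the junction, stop codon included. That stretch is intron in the long forms, so reads from unspliced *Homer1* RNA may be assigned to Homer1-204. Homer1-207 (ENSMUST00000109494) encodes 193 codons and splices to an exon 30.3 kb downstream, which holds its stop codon. The first 36 coding bases after the junction are the same in Homer1-207 and in the long form Homer1-203, so reads within that stretch do not part these forms. Homer1-206 (ENSMUST00000109493) encodes 233 codons. The long forms Homer1-203 (ENSMUST00000080127, 366 codons) and Homer1-202 (ENSMUST00000079086, 370 codons) carry on to the 3′ exons that encode the coiled coil. The sixth form with a mean of at least 10 reads per well, Homer1-211 (ENSMUST00000109498, 192 codons), joins exon 1 directly to the 3′ exons and lacks the shared exons 2 to 5, so that it counts as short by its length but is not like Homer1a.

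**Figure D1:**
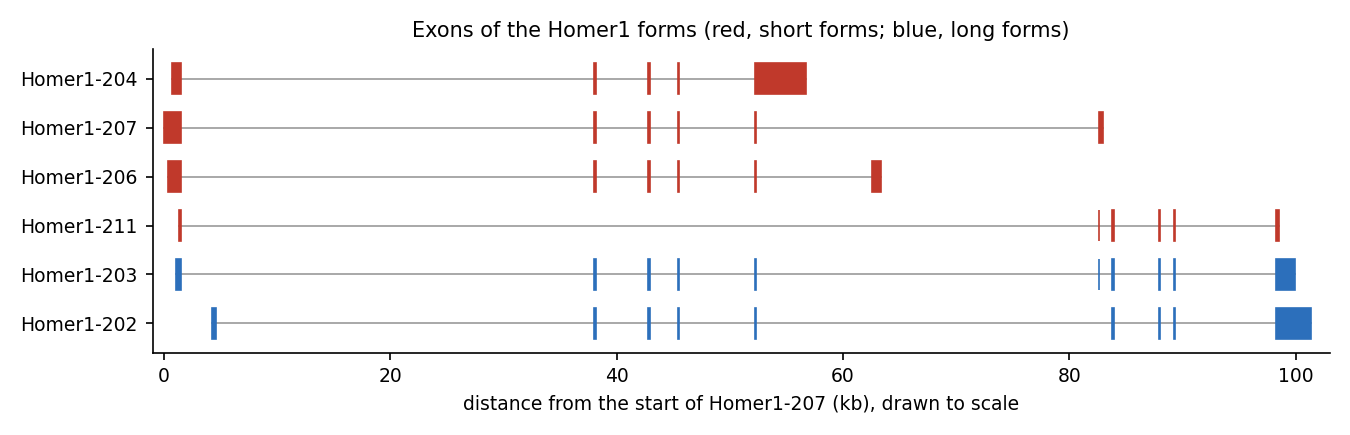
Exons (boxes) and introns (lines) of the 6 *Homer1* forms with a mean of at least 10 reads per well, against the distance in kb from the start of Homer1-207 (red, coding sequence under 250 codons; blue, 250 codons or more). Homer1-204 ends in a long exon that runs into intron 5, and Homer1-202 has a first exon of its own 4.28 kb downstream of the start of Homer1-207.

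*Arc* (ENSMUSG00000022602) lies on chromosome 15 of GRCm38 from 74669083 to 74672570, on the minus strand. Its level was 58.9, 55.0, 54.9 and 56.2 CPM in vehicle replicates 1 to 4 and 40.5, 34.7, 36.4 and 37.7 CPM in MCH replicates 1 to 4. Every MCH-treated well lay below every vehicle-treated well. The mean fell from 56.2 ± 1.86 to 37.3 ± 2.45 CPM (SD, n = 4 wells each), a log2 fold change of −0.59 (standard error, SE, 0.053, edgeR adjusted *P* = 0.00492), and *Arc* ranked 2 by *P* value among all genes tested. Within replicates 1 and 2 the mean log2 CPM differed by −0.60, and within replicates 3 and 4 by −0.58. In bulk RNA, fewer cells that express a gene and less of its RNA per cell cannot be told apart. The 2 annotated *Arc* transcripts, Arc-201 and Arc-202, both encode 396 codons and differ by 3 bases at the start of exon 2 and by 2 bases at the start of exon 1, so the division of reads between them is uncertain. Arc-201 held 60.4 ± 9.68% of the *Arc* reads with vehicle and 62.5 ± 5.99% with MCH (n = 4 wells each). Both had negative log2 fold changes, −0.53 (SE 0.15) for Arc-201 and −0.69 (SE 0.19) for Arc-202, and neither passed the test across all transcripts.

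*Homer1* (ENSMUSG00000007617) lies on chromosome 13 from 93299635 to 93405129, on the plus strand. Its level was 122, 124, 116 and 111 CPM in vehicle replicates 1 to 4 and 102, 97.0, 92.9 and 94.1 CPM in MCH replicates 1 to 4. As for *Arc*, all 4 MCH-treated wells were below the lowest vehicle-treated well. The mean fell from 118 ± 5.77 to 96.6 ± 4.14 CPM (SD, n = 4 wells each), a log2 fold change of −0.30 (SE 0.047, edgeR adjusted *P* = 0.0488). *Homer1* was the last of the 35 genes that passed. The call was lost in each of the 8 fits that left out a well, with adjusted *P* values from 0.0539 without MCH replicate 1 to 0.236 without vehicle replicate 2, while the log2 fold change stayed between −0.32 and −0.27. With an offset for average transcript length it was −0.22 on the log2 scale (edgeR adjusted *P* = 0.299), whereas with the replicate block it was −0.29 (edgeR adjusted *P* = 3.69e-05).

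*Homer2* (ENSMUSG00000025813) lies on chromosome 7 from 81600481 to 81707527 and *Homer3* (ENSMUSG00000003573) on chromosome 8 from 70282827 to 70294361. Both encode long, constitutive scaffold proteins. *Homer2* was at 51.7, 47.4, 52.5 and 46.3 CPM in vehicle replicates 1 to 4 and at 53.1, 53.8, 50.4 and 52.0 CPM in MCH replicates 1 to 4. The treatments overlapped, and the log2 fold change was 0.081 (SE 0.050, edgeR adjusted *P* = 0.750), with an interval of 1.96 standard errors from −0.018 to 0.18. *Homer3* was at 24.3, 27.0, 21.6 and 20.0 CPM with vehicle and 27.8, 29.8, 22.5 and 20.9 CPM with MCH, in the same order of replicates. It was higher in replicates 1 and 2 than in replicates 3 and 4 of both treatments, as 25.7 against 20.8 CPM with vehicle and 28.8 against 21.7 CPM with MCH. The astrocyte markers moved the other way between these wells, and their part in the *Homer3* level was not tested. Its log2 fold change between treatments was 0.12 (SE 0.13, edgeR adjusted *P* = 0.907), with an interval from −0.14 to 0.38. *Homer3* shares its locus with *Ddx49* on the other strand, and the strand setting of the counting is not given in the sources used here.

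**Figure D2:**
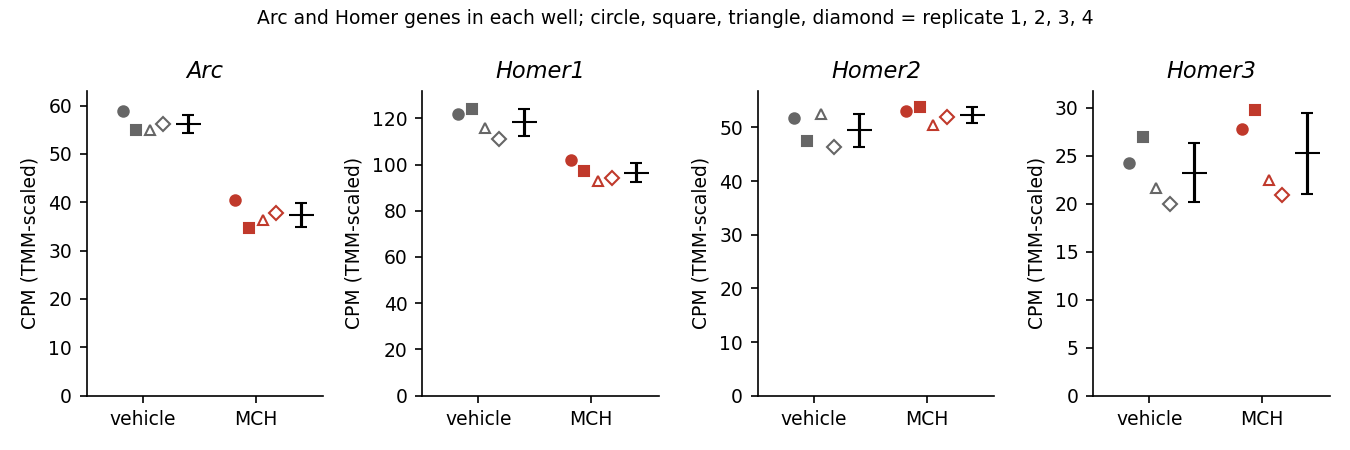
Level of *Arc*, *Homer1*, *Homer2* and *Homer3* in CPM in each well (grey, vehicle; red, MCH; circle, square, triangle and diamond, replicates 1 to 4), with the mean and SD of the 4 wells beside the points. The MCH-treated wells of *Arc* (34.7 to 40.5) and *Homer1* (92.9 to 102) all lie under the vehicle-treated wells, and those of *Homer2* and *Homer3* overlap them.

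Of the 4 genes, 2 passed the test, against 0.234% of all genes tested (35 of 14962), and both were lower with MCH, as were 0.207% of all genes tested (31). The wells of the same 2 genes did not overlap. Over all genes tested, the wells did not overlap in 6.03%, and in 2.96% the MCH-treated wells were the lower ones. With the replicate block, 3.98% of all genes tested passed, and of the 4 genes it again called *Arc* and *Homer1* and neither *Homer2* (edgeR adjusted *P* = 0.376) nor *Homer3* (edgeR adjusted *P* = 0.266).

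The levels of different genes were compared as TPM, which divide by transcript length before scaling to the library. With vehicle, *Homer1* was highest at 63.6 ± 1.54 TPM, followed by *Arc* at 33.8 ± 1.12, *Homer3* at 22.7 ± 3.44 and *Homer2* at 7.76 ± 0.529 (mean ± SD, n = 4 wells). With vehicle, no neighbours in this order overlapped, since the lowest *Arc* well, at 32.7 TPM, lay above the highest *Homer3* well, at 27.6. With MCH, *Arc* was at 22.8 ± 1.52 TPM, its mean just under the 24.7 ± 4.02 TPM of *Homer3*, and the wells of these neighbours overlapped. *Homer1* was at 55.1 ± 2.99 TPM and *Homer2* at 8.34 ± 0.219 TPM with MCH. Of the genes tested, 3204 had a higher mean TPM than *Homer1*, 5661 than *Arc*, 6257 than *Homer3* and 9536 than *Homer2*.

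Whether the 4 genes changed by different amounts was tested on the log2 ratio of their reads in each well, which does not depend on library size, over the 6 pairs. *Arc* over *Homer1* was −1.07 ± 0.0771 with vehicle and −1.37 ± 0.0750 with MCH, a difference of −0.30 (n = 4 wells each, exact two-sided permutation, *P* = 0.0286, the smallest that a free exchange of 4 wells against 4 can give, adjusted over the 6 pairs 0.0343). Every MCH-treated well lay under every vehicle-treated well, so *Arc* fell by more than *Homer1*. *Arc* over *Homer2* differed by −0.68 and *Arc* over *Homer3* by −0.71. *Homer1* over *Homer2* differed by −0.38 and *Homer1* over *Homer3* by −0.41, each of these 4 with the same exact *P* value as *Arc* over *Homer1*. *Homer2* over *Homer3* was 1.10 ± 0.205 with vehicle and 1.06 ± 0.211 with MCH, and its wells overlapped (difference −0.032, n = 4 wells each, exact permutation test, *P* = 0.857). Thus 5 of the 6 pairs passed. On TPM, 4 passed, and *Homer1* over *Homer3* did not (difference −0.33, adjusted exact *P* = 0.103). *Homer1* over *Homer3* also did not pass without any 1 of the 4 vehicle-treated wells (adjusted exact *P* = 0.0685 each). Without MCH replicate 2 none of the 6 passed (smallest adjusted exact *P* = 0.0572), and with differences taken within replicate numbers none could, because the smallest *P* value of that exact test is 0.125 (smallest adjusted *P* = 0.15).

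**Figure D3:**
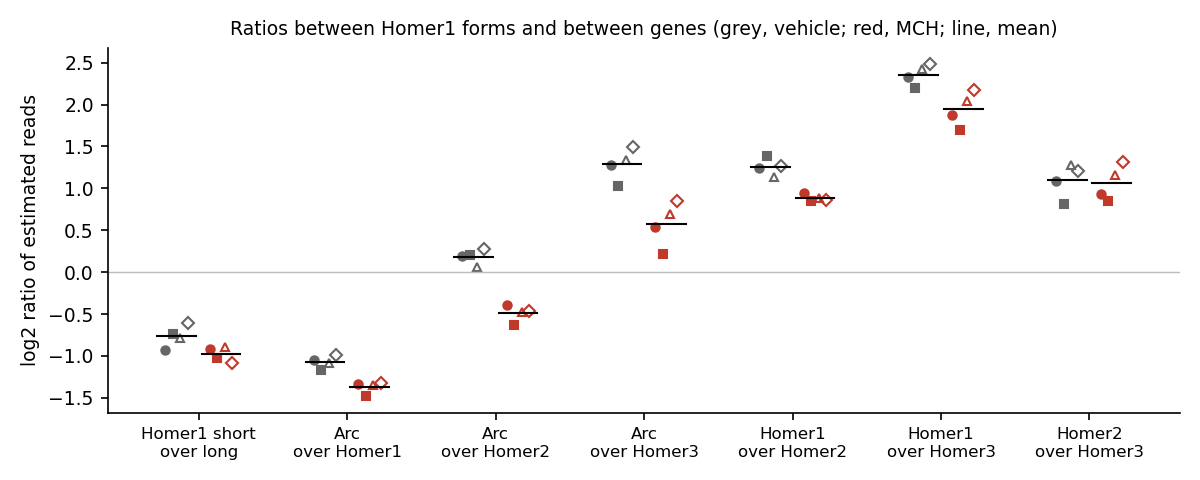
Log2 ratio of estimated reads in each well for the short over the long *Homer1* forms and for the 6 pairs of genes (grey, vehicle; red, MCH; symbols, replicates 1 to 4 as circle, square, triangle and diamond; black lines, means). The treatments are apart in 5 pairs and overlap in *Homer2* over *Homer3* and in the *Homer1* forms.

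The *Homer1* forms were then taken one by one. Of the 11 *Homer1* transcripts in the tables, 6 had a mean of at least 10 reads per well, 4 were at 0 in every well, and Homer1-205 had at most 3.93 reads. Homer1-204, the Homer1a form, had 833, 979, 861 and 822 estimated reads in vehicle replicates 1 to 4 and 687, 640, 563 and 637 in MCH replicates 1 to 4. All MCH-treated wells held fewer reads than any vehicle-treated well, also after scaling, at 32.3 ± 2.30 against 22.0 ± 1.85 CPM (SD, n = 4 wells each). Its log2 fold change was −0.55 (SE 0.081, edgeR adjusted *P* = 0.232 over 33527 transcripts, rank 22 by *P* value). DESeq2 called it (adjusted *P* = 6.81e-06), as it did 0.497% of the transcripts it tested (219 of 44074).

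Homer1-203, the most abundant long form, had 1350, 1460, 1330 and 1120 reads with vehicle and 1350, 1040, 1090 and 1060 with MCH, in the order of replicates. MCH replicate 1 reached the level of the vehicle-treated wells before scaling, and after scaling to library size its 43.3 CPM still lay above the lowest vehicle-treated well, at 42.0. The log2 fold change was −0.30 (SE 0.087, edgeR adjusted *P* = 0.943). Homer1-202, the long form with a start of its own, had 721, 684, 756 and 693 reads with vehicle and 743, 700, 661 and 763 with MCH. The treatments overlapped, with a log2 fold change of −0.078 (SE 0.072, edgeR adjusted *P* = 1.0) and an interval from −0.22 to 0.063. Homer1-207 had 229, 240, 298 and 309 reads with vehicle and 358, 209, 274 and 167 with MCH. Its MCH-treated wells spread around the vehicle-treated ones, with a log2 fold change of −0.19 (SE 0.21). Homer1-206 ranged from 0 to 59.8 reads and Homer1-211 from 0 to 76.4 reads per well, with standard errors of 1.02 and 1.91 on the log2 scale.

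**Figure D4:**
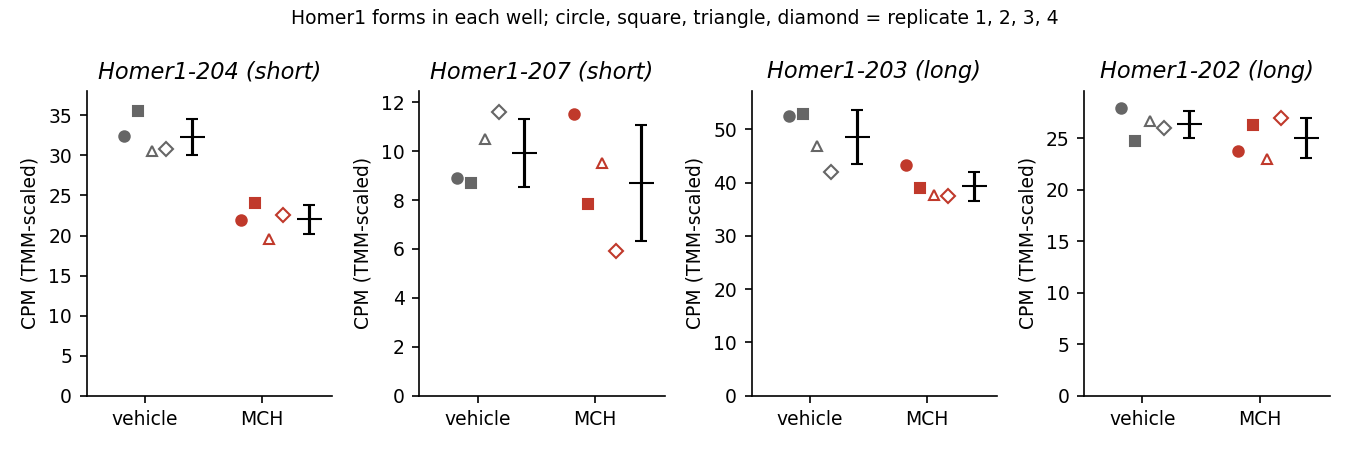
Level of the 4 most abundant *Homer1* transcripts in CPM in each well (grey, vehicle; red, MCH; circle, square, triangle and diamond, replicates 1 to 4), with the mean and SD of the 4 wells beside the points. Homer1-204 lies lower in all 4 MCH-treated wells, and the other 3 forms overlap between treatments.

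Of the 23 transcripts of the 4 genes, 12 passed the filter on low counts and 0 of the 12 passed the edgeR test, as did 0 of all 33527 transcripts tested (0.0%), of which 1476 had an unadjusted *P* value under 0.05. DESeq2 called 1 of the 23, Homer1-204. The MCH-treated wells lay below the vehicle-treated wells in Homer1-204 and, after scaling, in Arc-202 (22.4 ± 5.73 against 13.9 ± 1.57 CPM, n = 4 wells each), against 1.94% of all transcripts tested. *Homer2* reads were assigned to Homer2-201 except in MCH replicate 3, where all 1460 reads went to Homer2-202, and in vehicle replicate 4, where 84.6% went to Homer2-201. The totals of the gene in these wells, 50.4 and 46.3 CPM, were not set apart from the others in the same way, so no comparison of the *Homer2* forms was made. Homer3-203 and Homer3-206, both long forms, held 91.3 ± 5.2% of the *Homer3* reads with vehicle and 91.1 ± 2.16% with MCH (n = 4 wells each).

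The short *Homer1* forms together held 34.5, 37.4, 36.8 and 39.6% of the *Homer1* reads in vehicle replicates 1 to 4 and 34.5, 32.8, 35.0 and 32.1% in MCH replicates 1 to 4. Vehicle replicate 1 lay among the MCH-treated wells, and the other 3 vehicle-treated wells above them. The log2 ratio of short to long reads was −0.77 ± 0.13 with vehicle and −0.98 ± 0.0894 with MCH (n = 4 wells each), a difference of −0.22 that did not pass (exact two-sided permutation over 70 assignments, *P* = 0.0857). It passed in 1 of the 8 tests without a well, the one without vehicle replicate 1 (difference −0.27, exact permutation *P* = 0.0286). On TPM the difference was −0.042 (exact permutation *P* = 0.857). On that scale Homer1-211, a transcript at 8.02 TPM in MCH replicate 3 and at 0 to 3.05 TPM in the other wells, weighed more, and without it the difference was −0.17 (exact permutation *P* = 0.200). With Homer1-204 alone as the short form, a choice made after its values were seen, the difference was −0.33 (exact permutation *P* = 0.0286). Both sums were lower with MCH in every well after scaling, at 44.0 ± 1.86 against 32.6 ± 2.09 CPM for the short forms and 75.0 ± 5.41 against 64.3 ± 2.67 CPM for the long forms (SD, n = 4 wells each).

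The share of Homer1-202 among the *Homer1* reads is given as a description, since it was singled out after its values were seen. It was 22.8, 20.0, 23.0 and 23.1% in vehicle replicates 1 to 4 and 23.2, 27.1, 24.6 and 28.5% in MCH replicates 1 to 4, higher in each MCH-treated well than in any vehicle-treated one. Homer1-202 starts at base 93308034 of chromosome 13, whereas the other 5 forms start between bases 93303757 and 93305103. It also lacks the exon from 93386345 to 93386380 that Homer1-203 holds, and its last exon ends at 93405129 against 93403681 in Homer1-203. Reads assigned to Homer1-202 may come from these parts, so its share does not measure the use of its start. RefSeq's table of promoters on GRCm38.p6 held windows for 3 of the 4 genes, and *Arc* was not matched. Its 2 *Homer1* windows lie before the start of Homer1-207, the first of those 5, and before that of Homer1-202. Homer1-204, the Homer1a form, starts 738 bases after the first of these and has no window at its own start. The 250 bases before both starts are shown because Homer1-202 begins at a start apart from the other forms, with capitals for TGACG, the core of the cAMP response element, on the strand of the gene or the other one.
Homer1 first start, chr13:93303507-93303756: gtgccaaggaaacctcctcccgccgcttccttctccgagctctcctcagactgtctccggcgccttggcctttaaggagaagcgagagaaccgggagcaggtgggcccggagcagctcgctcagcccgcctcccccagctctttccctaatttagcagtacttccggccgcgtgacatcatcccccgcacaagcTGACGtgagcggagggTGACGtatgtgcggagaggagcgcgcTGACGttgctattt
Homer1 start of Homer1-202, chr13:93307784-93308033: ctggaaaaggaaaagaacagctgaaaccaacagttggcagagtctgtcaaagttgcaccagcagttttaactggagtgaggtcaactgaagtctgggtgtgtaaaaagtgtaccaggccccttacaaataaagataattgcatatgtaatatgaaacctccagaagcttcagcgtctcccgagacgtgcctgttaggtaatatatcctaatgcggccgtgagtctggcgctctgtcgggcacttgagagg

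The window of the first start held TGACG 3 times, 56, 40 and 14 bases before the start, and the window of the Homer1-202 start 0 times. Of all 32851 promoter windows, 17.8% held TGACG on either strand at least once and 0.688% at least 3 times. The full palindrome TGACGTCA stood in 1.55% of all windows and in none of the windows of the *Homer* genes, and the CArG box in 1.47% and also in none of theirs. TATAAA on either strand stood in 12.4% of all windows and in 1 of the 2 *Homer2* windows. The 62.4% of G and C in the first *Homer1* window compares with 46.8% in the second, 83.2% and 52.0% in the *Homer2* windows and 68.0% in the *Homer3* window.

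*Arc* and *Homer1* belong to the effector immediate early genes, whose products act as synaptic, signalling, enzyme or secreted proteins rather than as transcription factors. For *Homer1* the activity-induced form is Homer1a, and the value of the gene also counts the long forms. Of the 19 on the list, 2 passed, and they were *Arc* and *Homer1* themselves. The median log2 fold change of the list was −0.27, beside −0.0027 over all genes tested, and it was −0.19 over the other 17, of which 15 had a negative value. Some of these genes were known from the earlier results to be lower with MCH, so the list is no independent evidence. DESeq2 called 4 of the other 17, and 157 of the 11500 genes to which it gave an adjusted *P* value. Against 3.98% of all genes tested, 8 of the other 17 passed with the replicate block, all lower with MCH. They include *Bdnf*, a neurotrophin, from 336 ± 47.4 to 258 ± 33.5 CPM, *Nptx2*, a pentraxin that gathers AMPA receptors, from 97.0 ± 6.06 to 78.7 ± 5.22 CPM, and *Nrn1*, neuritin, from 245 ± 7.35 to 219 ± 1.69 CPM (n = 4 wells each). Without the block the same genes had edgeR adjusted *P* values of 0.410, 0.118 and 0.128. *Plk2*, a polo-like kinase, and *Plat*, tissue plasminogen activator, were the 2 with positive values, 0.026 and 0.031 on the log2 scale.

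**Figure D5:**
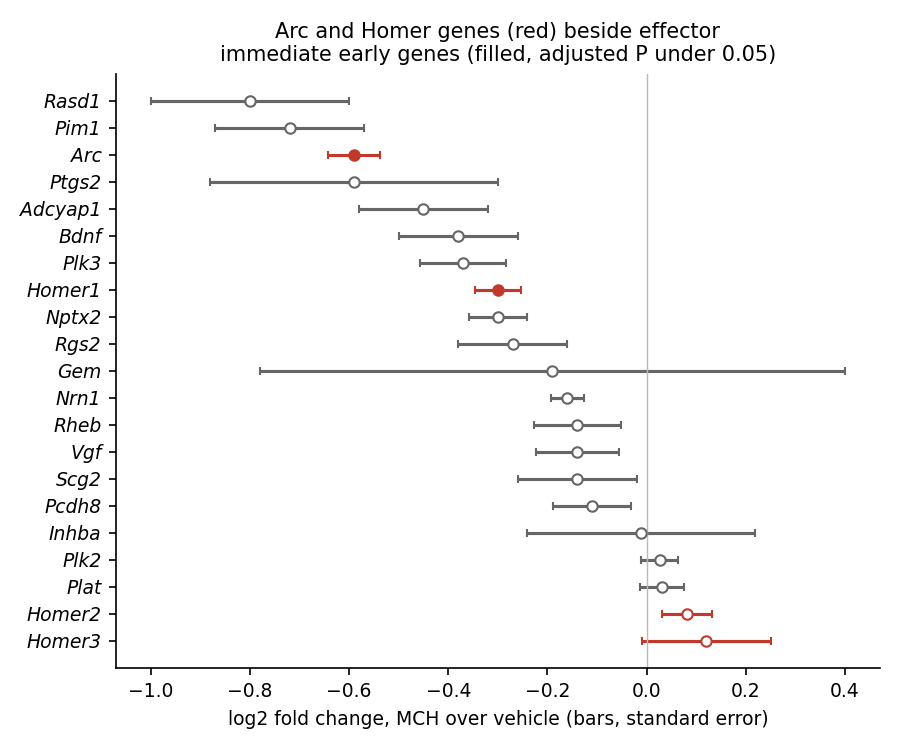
Log2 fold change of MCH over vehicle with its standard error for *Arc* and the *Homer* genes (red) and the other effector immediate early genes (grey), in order of the fold change. Filled points mark an adjusted *P* value under 0.05, which *Arc* at −0.59 and *Homer1* at −0.30 reached, and open points lie on both sides of them.

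The genes upstream of *Arc* and the partners of both families gave few calls. Beside their counts, 1272 of all 14962 genes tested had an unadjusted edgeR *P* value under 0.05, and 3.98% passed with the replicate block. None of the 12 regulators of *Arc* transcription passed in edgeR or DESeq2 (2 had an unadjusted *P* value under 0.05), with a median of −0.021. *Mef2d* and *Egr3*, the most abundant of them in TPM, were at −0.036 and −0.23, and with the replicate block 1 of the 12 passed, *Egr1*, an activity-induced zinc finger factor, at a log2 fold change of −0.18 in that fit (edgeR adjusted *P* = 0.0234). None of the 17 partners of the Arc protein passed with or without the block or in DESeq2 (1 had an unadjusted *P* value under 0.05), with a median of 0.00084. *Ap2m1*, the clathrin adaptor subunit that Arc binds, was at 921 ± 49.9 and 905 ± 46.7 CPM with vehicle and MCH, and *Dlg4*, which encodes PSD-95, at 955 ± 31.1 and 935 ± 17.8 CPM (n = 4 wells each).

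Of the 15 partners of Homer proteins on the list, 14 passed the filter and 0 the test in edgeR, with or without the replicate block, or in DESeq2 (0 had an unadjusted *P* value under 0.05), with a median of 0.086. *Agap2*, which encodes PIKE and was the most abundant in TPM, was at 796 ± 25.6 and 787 ± 24.1 CPM with vehicle and MCH, and *Dbn1*, drebrin, at 303 ± 6.93 and 305 ± 9.57 CPM (n = 4 wells each). *Grm5*, the receptor mGluR5, was at 225 ± 5.17 and 240 ± 11.2 CPM, and *Shank3* at 254 ± 6.21 and 246 ± 17.3 CPM (n = 4 wells each). *Grm5* and *Shank3* were named after their values were seen.

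Relatives of both proteins were read by the same test, and their counts stand beside the same shares. Those were 1272 of all 14962 genes tested for an unadjusted edgeR *P* value under 0.05 and 3.98% for the replicate block. Of the 18 genes derived from retroviral Gag sequences like *Arc*, 16 passed the filter and 0 the test in edgeR or DESeq2 (1 had an unadjusted *P* value under 0.05), with a median of −0.050, and *Rtl8b* and *Zcchc18*, the most abundant in TPM, had log2 fold changes of 0.040 and −0.085. With the replicate block 1 passed, *Zcchc12*, at −0.12 (edgeR adjusted *P* = 0.0471). The *Rtl8* genes are near-identical copies, and reads may be divided among them. Of the 8 other genes with an EVH1 domain, 7 passed the filter and 0 the test in edgeR or DESeq2 (4 had an unadjusted *P* value under 0.05), with a median of −0.14. *Evl* and *Enah*, which promote actin filament growth and were the most abundant in TPM, had −0.045 and 0.049. The replicate block called 3 of them, *Wasl*, *Spred2* and *Spred3*, at −0.16, −0.16 and −0.14 in that fit. Over the 6 lists, 2 of the 84 genes tested passed, and 15 with the replicate block.

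The genes whose pattern over the 8 wells was most like that of each member were found by the root mean square difference of centred log2 CPM, among 9563 genes with a mean of at least 10 CPM. For *Arc* these were *Sik1* (0.0682), a kinase induced by cAMP, *Spry2* (0.0850), an inhibitor of receptor tyrosine kinase signalling, and *Phf21b* (0.0851). All 3 passed the edgeR test, and *Sik1* fell from 38.9 to 25.2 CPM in the mean of 4 wells. For *Homer1* they were *Synj2* (0.0304), an inositol phosphatase, *Pcsk1* (0.0346), a prohormone convertase, and *Zfp948* (0.0431). The wells of these 3 did not overlap between treatments. None passed the edgeR test without the block (adjusted *P* = 0.115 in *Synj2*, 0.126 in *Pcsk1* and 0.253 in *Zfp948*), but all 3 passed with the replicate block (adjusted *P* = 7.84e-05, 0.000983 and 0.0175), and DESeq2 called *Synj2* and *Pcsk1* (adjusted *P* = 0.00265 and 0.00881). For *Homer2* they were *Ankle2*, *Osbpl5* and *Epm2aip1* (0.0201 to 0.0281), and for *Homer3* *Slc6a15*, *Plcxd3* and *Crim1* (0.0555 to 0.0595), and none of these 6 passed. The members' own spread on this scale was 0.303 in *Arc*, 0.158 in *Homer1*, 0.0736 in *Homer2* and 0.197 in *Homer3*, so small distances are easier to reach for the flatter genes. Likeness was measured over the wells of both treatments, so genes like *Arc* or *Homer1* were largely bound to differ between treatments. Their calls and their wells without overlap are therefore no further evidence.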

How the data were processed

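Poly-A RNA of 8 wells was sequenced as stranded libraries. Per the study's methods and the submitters' processing notes, the authors ran nf-core/rnaseq with salmon on GRCm38 and used DESeq2 in R 4.0.3. The deposited gene table holds estimated counts (9.13% of its values are not whole), and the deposited transcript tables hold estimated counts and the TPM that salmon gave the authors, a level per transcript length and library. Identifiers were matched to GENCODE vM21, which may not be the authors' annotation and named 98.77% of genes and 98.72% of transcripts.

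Here, after rounding, edgeR 4.0.16 was run in R 4.3.3 (TMM factors, filterByExpr, robust quasi-likelihood test, no block, Benjamini–Hochberg adjustment over all features tested). The standard error is the log2 fold change over the square root of F. Alternatives used DESeq2 1.42.0, limma 3.58.1 (voom), other size factors and filters, blocks, a length offset and leaving out each well. Ratios were tested by two-sided exact permutation over all wells, not within replicates 1 and 2 or 3 and 4, with 0.5 reads added to the sums of *Homer1* forms. Counting alone would give the 4 genes a coefficient of variation of 1.76 to 3.98% between wells, and the observed one was 2.86 to 16.7%. The edgeR and DESeq2 tests were also tested on simulated data, in which DESeq2 made more false calls than edgeR, most of all among transcripts. The simulated wells were independent and drawn with dispersions that edgeR had estimated. They lacked the split between replicates 1 and 2 and replicates 3 and 4, so the comparison may favour edgeR and may not carry over.

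The 4 genes and all lists were chosen with earlier results of these data known. After the tests were run, 1 gene was taken off the list of Homer partners and out of the counts over lists, because it is not reported here. Named are the 4 genes, their transcripts with a mean of at least 10 reads, list members that passed (or the 2 with the highest TPM), the 3 genes most alike and *Mchr1*, and other genes were named after their values were seen. The treatments share replicate numbers, and deviations from the treatment means correlated at 0.445 to 0.545 in same-numbered wells, at 0.475 to 0.521 between the numbers of one side (1 with 2, or 3 with 4) and at −0.548 to −0.438 across sides. Same-numbered wells were thus no more alike than other wells of their side, so these values show the sides but not pairs by number. The replicate block takes the numbers as pairs nonetheless, and the batch block (the sides) was read from the same counts. With the batch block the edgeR adjusted *P* value was 2.11e-07 for *Arc* and 8.59e-06 for *Homer1*.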

Additional observations from a re-analysis of the deposited data

Results flagged for a closer look

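Of 48 groups of 4 wells looked at, 4 held a well far from the other 3 for its group's range, where chance gives about 1 in 20 by the 95% critical value used. The groups are not independent. Homer1-203 had 1350 reads in MCH replicate 1 and 1040 to 1090 in the other MCH-treated wells, and that well also had the largest library. Homer2-201 had 0 reads in MCH replicate 3 against 1430 to 1660 in the other MCH-treated wells, and Homer2-202 had 1460 reads there and 0 in the others. In vehicle replicate 4, Homer2-202 had 192 reads, and 0 in the other vehicle-treated wells. At the level of the gene, *Homer2* was at 50.4 CPM in MCH replicate 3 and 46.3 CPM in vehicle replicate 4, and neither stood apart.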

How the results depend on the processing

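*Arc* passed in all 8 alternatives and in all 8 fits without a well (adjusted *P* from 4.67e-16 to 0.0387), and *Homer2* and *Homer3* passed in none. *Homer1* did not pass with limma voom (log2 fold change −0.29), with DESeq2's size factors in edgeR (−0.29) or with the length offset (−0.22), nor without any 1 well (−0.32 to −0.27). The number of genes that passed was 157 with DESeq2, 596 with the replicate block, 668 with the batch block and 7 with the length offset, and 4 to 29 without a well. DESeq2 called 1 member transcript. The *Homer1* short over long difference ranged from −0.27 to −0.17 without a well, and only without vehicle replicate 1 did it pass (exact permutation *P* = 0.0286). It also passed with Homer1-204 alone (−0.33), a choice made after its values were seen. Of the 6 pairs, 0 passed with the replicate block and 0 to 5 without a well. On the 6 lists, 15 genes passed with the replicate block and 18 with the batch block, against 2. The replicate block changed no call of the 4 genes or their transcripts, and the marker and other genes that it added are given with their comparisons. The *Homer1* ratio and the pairs could not pass with differences within replicate numbers, because the smallest *P* value of that exact test is 0.125. Without a well, the sign turned in Homer1-211 (−0.6 to 1.47), Homer2-201 (−0.44 to 0.16), Homer3-203 (−0.086 to 0.16) and *Homer2* over *Homer3* (−0.13 to 0.04), none of which passed. The causes were not tested. Counting error was close to the observed coefficient of variation in *Homer2* with MCH (2.57 and 2.86%) and in *Arc* with vehicle (2.56 and 3.31%), and well under it in *Homer3* (3.98 and 13.2% with vehicle).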
